A study of Mus musculus with 24 samples.

Results

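TRAV/DV segments are variable (V) gene segments that can be joined in either an alpha or a delta T cell receptor chain. They were taken from the alpha-chain (TRA) sequence tables as every V name of the TRAV series that also carries a DV number, kept when the sequence had no stop mark and a count of at least 2. Of the 103 TRAV and TRDV segments found, 9 met this rule, with 3508 sequences and 483511 counts over the 24 libraries. The RefSeq mouse annotation lists 10 such genes, and the remaining one, TRAV15D-2/DV6D-2, was not found among the filtered sequences. The libraries came from whole tumors of female BALB/c mice carrying the colon cancer line CT26.CL25 in both flanks, with 2 tumors sequenced from each of 12 mice. In the time-matched group (mice 6, 12 and 14) both tumors were taken on day 13, without treatment. In the time-separated group (mice 4, 17 and 19) the labels give no treatment, although the study's legends name a vehicle for it, and 1 tumor was removed by surgery and its partner was taken 11 days later. The low-dose group (mice 3, 11 and 20) and the high-dose group (mice 7, 10 and 16) followed the same surgery schedule and received decitabine, a DNA methyltransferase inhibitor, into the peritoneum at 0.5 or 2 mg/kg. Dosing began 3 days after the first tumor had been removed, so 1 tumor of each decitabine mouse was never exposed to the drug. Tumors carry the numbers 1 and 2 in the labels, which do not say which was removed first, so no direction in time was given to any pair. Each library held between 26623 and 846655 TRA counts (median 159256), which bounds how small a share could be seen.

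In the mouse genome the delta locus lies inside the alpha locus, between the TRAV segments and the alpha joining (TRAJ) segments. A V-to-TRAJ joining therefore removes the delta locus from that chromosome. Alpha joining can be repeated on one chromosome, each round using a V segment farther upstream and a TRAJ segment farther downstream. TRAV/DV segments are placed among ordinary TRAV segments along the locus, while TRDV segments are used mainly in delta chains. The complementarity determining region 3 (CDR3) spans the V-to-J junction and is the part of the chain that most often contacts the peptide. A clonotype was defined as a combination of V segment, J segment and CDR3 amino acid sequence.

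The CDR3 nucleotide sequences of the largest TRAV/DV clonotype in each mouse are given first, because the 12 clonotypes together held 77.0% of all TRAV/DV counts. The largest was taken as the one with the highest share of counts in either tumor of the mouse, so a clonotype with a lower peak can have more counts in the other tumor. Lower-case letters mark the start shared with at least 10% of CDR3s of the same V segment joined to other J segments, and the end shared with at least 10% of CDR3s of the same J segment joined to other V families. Capitals mark the bases between the 2 shared parts. They were read from these libraries and not from a germline reference.
Mouse 12, TRAV16D/DV11 with TRAJ30: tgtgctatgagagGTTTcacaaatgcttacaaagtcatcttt
Mouse 14, TRAV16D/DV11 with TRAJ43: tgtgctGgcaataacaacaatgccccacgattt
Mouse 4, TRAV16D/DV11 with TRAJ40: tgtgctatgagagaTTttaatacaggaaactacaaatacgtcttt
Mouse 16, TRAV16D/DV11 with TRAJ17: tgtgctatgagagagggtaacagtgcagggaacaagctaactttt
Mouse 10, TRAV15D-1/DV6D-1 with TRAJ34: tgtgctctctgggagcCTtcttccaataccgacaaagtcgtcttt
Mouse 19, TRAV15D-1/DV6D-1 with TRAJ21: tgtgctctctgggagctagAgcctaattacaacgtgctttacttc
Mouse 6, TRAV15-1/DV6-1 with TRAJ33: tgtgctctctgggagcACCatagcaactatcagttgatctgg
Mouse 17, TRAV21/DV12 with TRAJ56: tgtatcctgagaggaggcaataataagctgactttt
Mouse 11, TRAV21/DV12 with TRAJ56: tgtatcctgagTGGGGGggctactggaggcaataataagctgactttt
Mouse 20, TRAV21/DV12 with TRAJ57: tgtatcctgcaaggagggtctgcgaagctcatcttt
Mouse 7, TRAV21/DV12 with TRAJ49: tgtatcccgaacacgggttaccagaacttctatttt
Mouse 3, TRAV13-4/DV7 with TRAJ50: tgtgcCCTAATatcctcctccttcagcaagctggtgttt
The 12 junctions differed from each other, also where mice 17 and 11 had joined the same pair of segments. Between 0 and 6 bases lay outside the shared parts.

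The 9 segments were used very unequally. TRAV16D/DV11 held 68.1% of all TRAV/DV counts, TRAV15D-1/DV6D-1 16.6% and TRAV21/DV12 9.35%. TRAV13-4/DV7 held 2.62%, TRAV15-1/DV6-1 2.24% and TRAV15-2/DV6-2 0.680%. TRAV6-7/DV9, TRAV4-4/DV10 and TRAV14D-3/DV8 held 0.294%, 0.0730% and 0.0515%. TRAV16D/DV11 and TRAV21/DV12 were found in all 24 libraries, whereas TRAV4-4/DV10 was found in 15 and TRAV14D-3/DV8 in 14. By the median share of a library's TRA counts, TRAV16D/DV11 ranked 19 of 103 segments at 0.856% and TRAV21/DV12 ranked 22 at 0.699%. The medians of these 2 were separated by less than the range of either segment. The next 3, TRAV15-1/DV6-1 at 0.140%, TRAV13-4/DV7 at 0.118% and TRAV15D-1/DV6D-1 at 0.110%, were closer still. The highest library of TRAV15D-1/DV6D-1 nevertheless reached 16.4% and that of TRAV16D/DV11 20.0%, against 9.36% for TRAV21/DV12 and 1.69% for TRAV15-1/DV6-1. A total built from all libraries thus follows the few libraries with a very high value. In bulk tumor RNA, fewer cells using a segment and less receptor RNA per cell cannot be told apart.

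Compared within V families, the TRAV/DV member was a minor one in 4 families with other members in use. The median share was 0.0350% for TRAV6-7/DV9 against 10.0% for the other 12 TRAV6 segments together, and 0.118% for TRAV13-4/DV7 against 2.59% for 10 other TRAV13 segments. TRAV14D-3/DV8 had a median of 0.00130% against 5.43% for the other TRAV14 segments, and TRAV4-4/DV10 0.00133% against 2.72% for the other TRAV4 segments. The TRAV16 family was more even, at 0.856% for TRAV16D/DV11 and 1.38% for TRAV16. In the TRAV15 family the 3 TRAV/DV members had a summed median of 0.419% and the only other segment found, TRAV15N-1, a median of 0. TRAV21/DV12 had no other family member.

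Summed over the 9 segments, TRAV/DV took a median of 4.00% of TRA counts (1.22 to 21.0%) and 5.40% of clonotypes (2.77 to 12.8%). In time-matched mouse 12 tumors 1 and 2 were at 20.3 and 19.3%, whereas mouse 6 was at 2.40 and 2.62% and mouse 14 at 1.22 and 1.33%. Time-separated mouse 4 was at 3.70 and 3.91%, mouse 17 at 5.38 and 9.72% and mouse 19 at 3.77 and 13.2%. Low-dose mouse 3 was at 3.39 and 1.68%, mouse 11 at 2.30 and 2.28% and mouse 20 at 4.36 and 2.62%. All 6 low-dose libraries were thus below 5%, and in the time-matched group only mouse 12 was above it. High-dose mouse 7 was at 4.09 and 8.36%, mouse 10 at 15.0 and 21.0% and mouse 16 at 6.62 and 13.6%. The means over mice were 7.86% ± 10.3 in the time-matched, 6.61% ± 2.48 in the time-separated, 2.77% ± 0.633 in the low-dose and 11.4% ± 5.99 in the high-dose group (SD, n = 3 mice each). As a share of clonotypes they were 5.72% ± 3.84, 6.23% ± 0.773, 4.32% ± 0.701 and 8.75% ± 2.27, and the first of these was 3.52% without mouse 12. Sequences at most 1 base from a much larger one, or identical to it under another V name, were then merged into it. Merging can thus move counts from one segment to another. After merging, these means were 5.78% ± 1.68, 6.84% ± 1.59, 5.49% ± 0.734 and 6.31% ± 0.932, so the high-dose group was no longer the highest. By the mean of its tumors, every time-separated and every high-dose mouse lay above every low-dose mouse in count share, and the other pairs of groups overlapped. These sums over a chosen list were not tested.

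**Figure D1:**
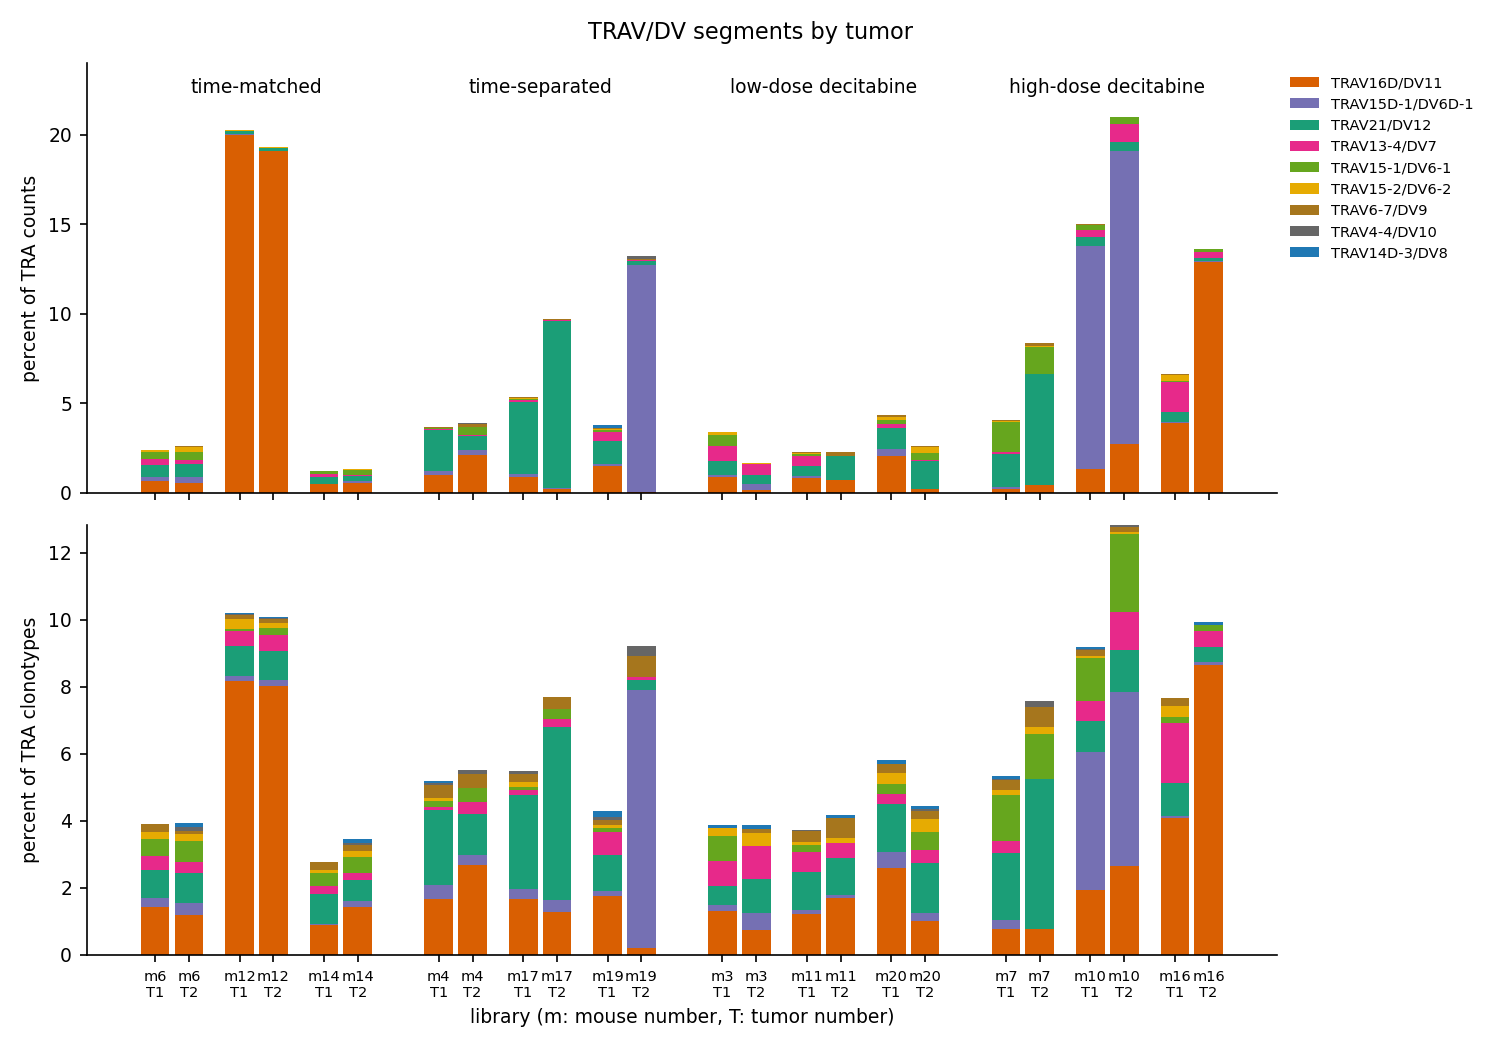
Share of TRA counts (upper panel, percent) and of clonotypes (lower panel, percent) taken by each TRAV/DV segment in each of the 24 libraries, stacked by segment and ordered by group and mouse. Mouse 12 (20.3 and 19.3% of counts), mouse 10 (15.0 and 21.0%) and the second tumors of mice 16 and 19 stand above the other libraries, each through a different main segment or J partner.

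In each of the 8 libraries where TRAV/DV segments took over 8% of counts, a single clonotype held most of them. Over all libraries the largest TRAV/DV clonotype held from 8.48% of the library's TRAV/DV counts, in tumor 1 of mouse 19, to 93.2%, in tumor 2 of mouse 12. The TRAV16D/DV11 clonotype with TRAJ30 in mouse 12 took 18.7% of all TRA counts in tumor 1 (95% exact binomial interval 18.6 to 18.8%) and 17.98% in tumor 2 (17.9 to 18.1%), and ranked 2 among all clonotypes in both. Without it the summed TRAV/DV share of mouse 12 was 1.58 and 1.32%, inside the range of the other time-matched mice. It had 106899 and 152199 counts in the 2 tumors of mouse 12. The same nucleotide sequence was also listed in 8 libraries of 7 other mice, with 16 counts in all and at most 5 in a library. Low counts of this kind were found for 7 more of the 12 printed sequences, at 1 to 5 counts, and their source was not tested. Such intervals cover counting error only, since the counts may include copies of one amplified molecule.

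The TRAV15D-1/DV6D-1 clonotype with TRAJ34 in mouse 10 took 11.8% of counts in tumor 1 (11.7 to 11.9%) and 15.7% in tumor 2 (15.6 to 15.9%), and ranked 2 in both. The TRAV15D-1/DV6D-1 clonotype with TRAJ21 in mouse 19 took 11.7% in tumor 2 (11.5 to 11.9%) and had 0 of 87159 counts in tumor 1, which allows a share of up to 0.00344% (3 counts of the total, as for the other limits of this kind). The same V segment was thus expanded in both tumors of one mouse and in a single tumor of another, with different J partners. The TRAV16D/DV11 clonotype with TRAJ17 in mouse 16 took 2.36% of counts in tumor 1 (rank 7) and 9.97% in tumor 2 (rank 2). Among TRAV21/DV12 clonotypes, that with TRAJ56 in mouse 17 took 3.03 and 6.37%, that with TRAJ49 in mouse 7 took 1.40 and 5.57%, and that with TRAJ57 in mouse 20 took 0.0278 and 1.10%. All 3 were higher in the tumor numbered 2, beyond their counting intervals.

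The largest clonotypes of the remaining 5 mice were at 1% or less. In 5 mice another TRAV/DV clonotype led tumor 1. It used TRAV15-1/DV6-1 in mouse 7 with 3371 counts, TRAV21/DV12 in mouse 4 with 1609 and in mouse 19 with 279, TRAV16D/DV11 in mouse 20 with 1122, and TRAV13-4/DV7 in mouse 11 with 629. The TRAV16D/DV11 clonotype with TRAJ40 in mouse 4 had 0 of 183066 counts in tumor 1 (up to 0.00164%) and 0.930% in tumor 2. The TRAV21/DV12 clonotype with TRAJ56 in mouse 11 had 0 of 198499 counts in tumor 1 (up to 0.00151%) and 0.826% in tumor 2. In contrast, the TRAV13-4/DV7 clonotype with TRAJ50 in mouse 3 was at 0.543 and 0.578%, and its intervals, 0.488 to 0.602% and 0.517 to 0.645%, overlapped. In time-matched mouse 6, TRAV15-1/DV6-1 with TRAJ33 was at 0.302 and 0.327%, with overlapping intervals. In time-matched mouse 14, TRAV16D/DV11 with TRAJ43 was at 0.305% (0.285 to 0.325%) and 0.246% (0.228 to 0.265%), and these intervals did not overlap.

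**Figure D2:**
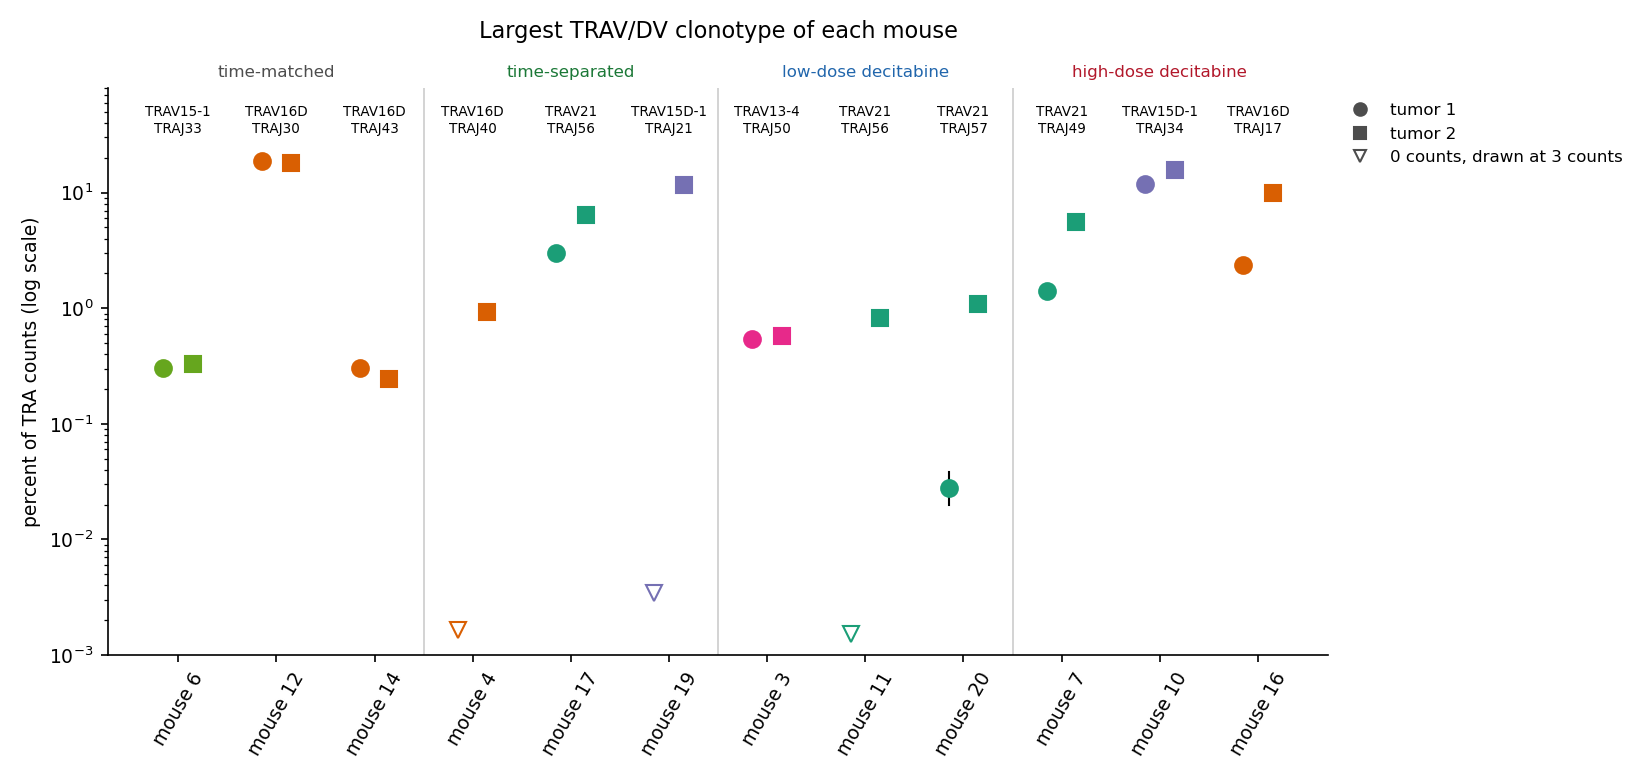
Share of TRA counts (percent, log scale) of the TRAV/DV clonotype of each mouse with the highest share in either tumor, a choice that favors a gap between tumors, in tumor 1 (circles) and tumor 2 (squares), with 95% exact binomial intervals as thin bars mostly hidden by the symbols. Open triangles stand for 0 counts and are drawn at 3 counts; they occur in mice 4, 19 and 11, none of which was time-matched.

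Some segments had their largest clonotype outside this set of 12. TRAV13-4/DV7 with TRAJ52 reached 1.40% in tumor 1 of mouse 16 and was at 0.223% in tumor 2. TRAV15-1/DV6-1 with TRAJ30 was at 1.52 and 1.40% in mouse 7. TRAV15-2/DV6-2 with TRAJ39 was at 0.336% in tumor 1 of mouse 16 and had 0 of 135215 counts in tumor 2 (up to 0.00222%). TRAV4-4/DV10 with TRAJ56 reached 0.0562% and TRAV14D-3/DV8 with TRAJ47 0.0826%, each in 1 tumor of mouse 19. The highest for TRAV6-7/DV9, with TRAJ15, was 0.0343 and 0.0996% in mouse 11.

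The V name of several members was not certain, because an identical CDR3 was listed in the same library under a closely related V segment as well. For TRAV16D/DV11, 95.3% of counts had a CDR3 and J segment also listed under another V segment, always including TRAV16 for the shared sequences, but only 0.0878% of counts were in sequences larger under the other name. TRAV15D-1/DV6D-1 was similar, at 80.5 and 0.0849%, with TRAV15-1/DV6-1 as the most frequent other name. TRAV15-1/DV6-1 had 46.8% of counts shared and 12.9% larger under the other name, and by number 29.8% of its sequences were larger there. The main TRAV16D/DV11 and TRAV15D-1/DV6D-1 clonotypes were therefore listed mostly under the names used here. The 3 rarest segments were not: 82.1% of TRAV6-7/DV9 counts, 81.5% of TRAV14D-3/DV8 counts and 48.7% of TRAV4-4/DV10 counts were in sequences larger under TRAV6-6, TRAV14N-3 or TRAV4-3 and others. The TRAV6-7/DV9 clonotype of mouse 11, for example, had 68 and 96 counts, against 3106 and 7448 of the same CDR3 under other V names. No TRAV21/DV12 or TRAV15-2/DV6-2 sequence was shared in this way, and values of the 3 rarest segments, and sequence and clonotype numbers of TRAV15-1/DV6-1, are uncertain for this reason.

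J partners were counted over distinct clonotypes, each mouse counted apart. TRAV16D/DV11 had 1036 clonotypes over 38 J segments, led by TRAJ30 with 305, TRAJ17 with 84 and TRAJ22 with 62. Of the 305 with TRAJ30, 281 came from mouse 12. After near-identical sequences were merged 86 remained, 68 of them in mouse 12. TRAV15D-1/DV6D-1 had 287 clonotypes, led by TRAJ34 with 116 (112 in mouse 10), TRAJ21 with 74 (all in mouse 19) and TRAJ18 with 20 in 8 mice. The leading J partners of these 2 segments were thus those of the single expanded clonotypes. Of their sequences, 56.4 and 65.5% were at most 1 base from one at least 20 times larger, under the same or another V name. Over all segments this share was 49.2%. TRAV21/DV12 joined TRAJ49 in 92 of 553 clonotypes (11 mice, 32 of them in mouse 7), TRAJ56 in 91 (12 mice, 45 of them in mouse 17) and TRAJ57 in 70 (12 mice). These were also the J segments of the large clonotypes of mice 7 and 17, and 47, 39 and 48 clonotypes remained after merging. TRAV13-4/DV7 joined TRAJ52 in 36 of 196 clonotypes, and TRAJ50 and TRAJ47 in 24 each. TRAV15-1/DV6-1 joined TRAJ34 in 52 of 191 clonotypes (49 of them in mouse 10), TRAJ30 in 33 (31 in mouse 7) and TRAJ49 in 11. The CDR3 of the large TRAV15D-1/DV6D-1 clonotype with TRAJ34 in mouse 10 had 402 and 679 counts under other V names. After merging 94 TRAV15-1/DV6-1 clonotypes remained, with 7 for TRAJ34, 8 for TRAJ30 and 8 for TRAJ49, behind TRAJ42 with 9.

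TRAJ numbers fall from the V side toward the constant gene, so a high number marks a J segment near the V segments. TRAV/DV segments from different ends of the locus used different parts of the J cluster. TRAV15D-1/DV6D-1, at place 25 of 136 V genes in the RefSeq gene order, had a mean TRAJ number of 28.3, and TRAV16D/DV11, at place 45, one of 27.1. TRAV14D-3/DV8 at place 47 had 33.4, TRAV15-1/DV6-1 at place 99 had 34.9 and TRAV15-2/DV6-2 at place 108 had 37.2. TRAV4-4/DV10 at place 111 had 41.8, TRAV6-7/DV9 at place 113 had 41.7, TRAV13-4/DV7 at place 118 had 44.6 and TRAV21/DV12 at place 128 had 47.9, where the mean of all clonotypes was 33.4. The share of clonotypes with TRAJ40 or a higher number ran from 9.79% for TRAV15D-1/DV6D-1 and 15.8% for TRAV16D/DV11 to 77.0% for TRAV13-4/DV7 and 83.5% for TRAV21/DV12, with 39.4% over all clonotypes. The low shares depended in part on the expanded clonotypes. With the V and J pair of each mouse's largest clonotype left out in that mouse, the share was 28.0% for TRAV15D-1/DV6D-1 and 20.9% for TRAV16D/DV11, which turned their order. After merging it was 14.3 and 20.8%, and that of TRAV15-1/DV6-1 rose from 29.3 to 53.8%. TRAV13-4/DV7 and TRAV21/DV12 stayed at 68% or more in both settings. The mean TRAJ numbers of TRAV15D-1/DV6D-1 and TRAV16D/DV11 were 26.2 and 28.4 after merging, also in the opposite order. TRDV1, next to TRAV21/DV12 at place 129, had a mean of 46.6. Place and mean TRAJ number were compared over the 64 segments with at least 20 clonotypes and a known place, with TRDV segments left out. Pearson's r was 0.557 and Spearman's rho 0.657, given as a description since the segments share libraries. The gene order is that of another strain, C57BL/6J, and BALB/c may differ from it.

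Within each mouse the mean TRAJ number of a segment was set against that of all other clonotypes, for the 38 segments with at least 5 clonotypes in each of the 12 mice. By an exact two-sided sign-flip permutation test over mice with Benjamini-Hochberg adjustment, 3 of the 3 TRAV/DV segments tested were called, beside 52.6% of all segments tested. TRAV21/DV12 was higher by 14.8 J numbers (SD 1.74, n = 12) and TRAV13-4/DV7 by 10.8 (SD 3.55), each in 12 of 12 mice. TRAV16D/DV11 differed by -6.45 (SD 3.87) and was higher in 0 of 12 mice. The exact permutation p was 0.000488 for all 3, the smallest this design allows, and the adjusted p was 0.00206. TRAV16, the near-identical relative of TRAV16D/DV11 at place 117, went the opposite way, by 7.58 (SD 3.04, higher in 12 of 12 mice, exact permutation adjusted p = 0.00206). Since 20 of the 38 segments were called, a shift in J use was common and not special to TRAV/DV segments. All 3 calls were made in every alternative run, including with near-identical sequences merged. With single-count sequences kept, more members could be tested. TRAV6-7/DV9 was then called at 4.38 (higher in 10 of 12 mice, exact permutation adjusted p = 0.0220). TRAV15D-1/DV6D-1 was not called, at -6.40 (SD 9.72, higher in 3 of 12 mice, exact permutation adjusted p = 0.0789). Nor were TRAV15-1/DV6-1, TRAV15-2/DV6-2 and TRAV14D-3/DV8, at 2.29, 2.19 and 1.35.

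**Figure D3:**
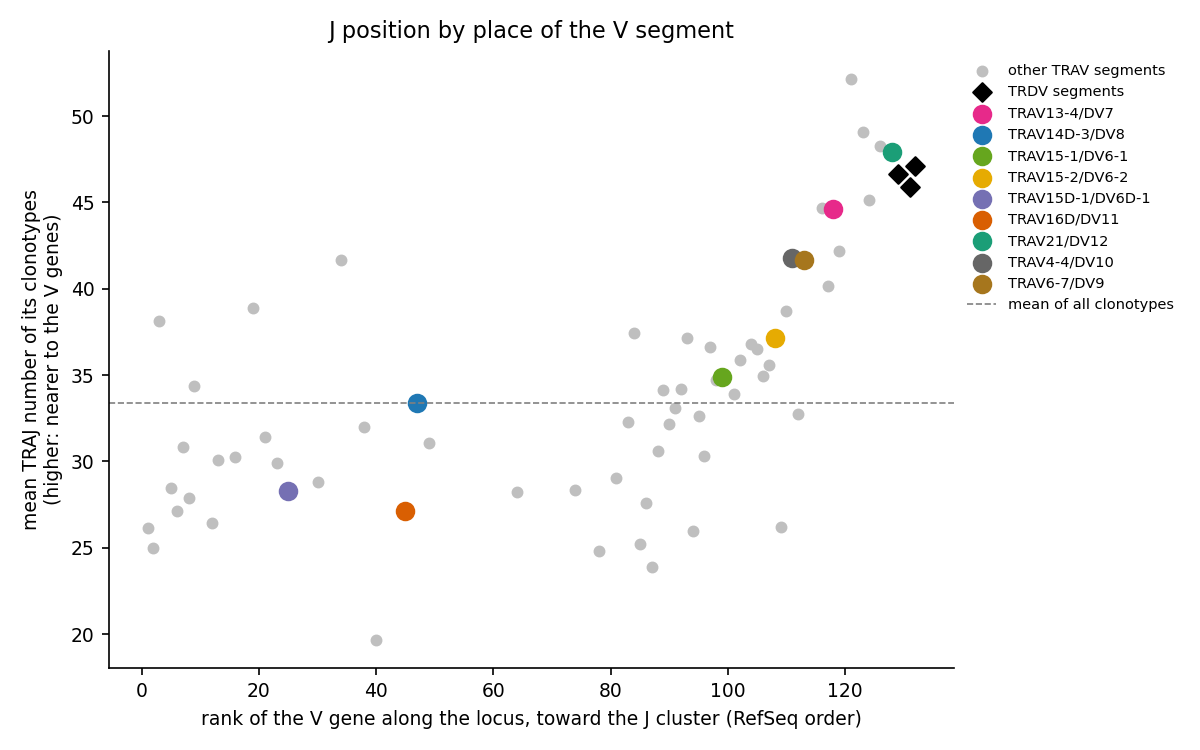
Mean TRAJ number of the clonotypes of each V segment (vertical axis) against the place of the V gene along the locus (horizontal axis, rank in the RefSeq gene order) for segments with at least 20 clonotypes and a known place. TRAV16D/DV11 and TRAV15D-1/DV6D-1, at places 45 and 25, lie below the mean of all clonotypes (33.4, dashed), and TRAV13-4/DV7 and TRAV21/DV12, at places 118 and 128, lie well above it beside the TRDV segments.

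CDR3 length also differed among members. The mean over clonotypes was 12.8 amino acids for TRAV13-4/DV7, 13.8 for TRAV21/DV12 and 14.0 for TRAV16D/DV11, and 15.3 to 15.8 for the 3 TRAV15 segments, with 13.7 over all clonotypes. In the same exact sign-flip permutation test 2 of 3 TRAV/DV segments were called, beside 52.6% of all 38 segments tested. TRAV13-4/DV7 was shorter, by -0.755 amino acids (SD 0.560, higher in 1 of 12 mice, adjusted p = 0.00464), and TRAV16D/DV11 longer by 0.339 (SD 0.394, higher in 10 of 12 mice, adjusted p = 0.0293). The TRAV16D/DV11 call was lost when mouse 4, 3, 11, 7 or 16 was left out, and with single-count sequences kept (0.309, exact permutation adjusted p = 0.0676). TRAV21/DV12 was longer by 0.373 (SD 0.530, 9 of 12 mice), with exact permutation adjusted p = 0.0654. It was called at 0.533 with a minimum count of 5 and at 0.623 with near-identical sequences merged, but with a minimum count of 1 it was 0.127 (6 of 12 mice, exact permutation adjusted p = 0.546). The TRAV15 segments had too few clonotypes in some mice for this test. When single-count sequences were kept they could be tested, and TRAV15-1/DV6-1, TRAV15-2/DV6-2 and TRAV15D-1/DV6D-1 were longer by 1.93, 1.78 and 2.10 amino acids, each in 12 of 12 mice (exact permutation adjusted p = 0.00207). TRAV14D-3/DV8 could then be tested too and was shorter, by -0.545 (higher in 2 of 12 mice, exact permutation adjusted p = 0.0210). TRAV6-7/DV9 was not called, at 0.193 (exact permutation adjusted p = 0.116). Of the printed CDR3s, those of TRAV21/DV12 had 36 bases in mice 17, 20 and 7 and 48 in mouse 11, against 45 in the TRAV15D-1/DV6D-1 clonotypes of mice 10 and 19.

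Non-productive sequences, marked with a stop or out of frame, were taken to reflect joining without selection on the protein, which was not tested here. The share of a segment among them was set against its share among productive sequences. TRAV16D/DV11 made up 1.58% of non-productive and 2.66% of productive sequences, a ratio of 0.595. The ratio was 0.928 for TRAV21/DV12, 1.06 for TRAV13-4/DV7, 0.730 for TRAV15D-1/DV6D-1, 1.43 for TRAV15-1/DV6-1 and 2.59 for TRAV15-2/DV6-2. It was 0.471 for TRAV6-7/DV9, 0.314 for TRAV14D-3/DV8 and 0.236 for TRAV4-4/DV10, the last 2 with 4 and 3 non-productive sequences. The members thus lay on both sides of an even ratio. Tested within mice, 1 of 3 TRAV/DV segments was called, beside 13.2% of all 38 tested. This was TRAV16D/DV11, with a mean log2 ratio of -1.23 (SD 0.74, higher in 0 of 12 mice, exact sign-flip permutation adjusted p = 0.00928). With a minimum count of 1 it was -0.58 and still called. Its relative TRAV16 was called in the same direction, at -0.63 (SD 0.43, higher in 0 of 12 mice, exact sign-flip permutation adjusted p = 0.00928). TRAV21/DV12 had -0.06 (SD 0.21) and TRAV13-4/DV7 -0.34 (SD 1.22), which did not pass the test. With a minimum count of 5, or with counts as weights, TRAV21/DV12 was called as well, at -0.93 and -1.09 (adjusted p = 0.0186 in both).

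The constant, diversity and joining segments listed with TRAV/DV sequences were counted next. The libraries were primed for alpha and beta chains, so the constant segment does not tell alpha from delta joining. The alpha constant segment TRAC was named in 3464 of the 3508 sequences (98.7%), no constant segment in 44, and a delta constant segment in 0. No TRAV/DV sequence was listed with a delta diversity (TRDD) segment. A delta joining segment, TRDJ1, was listed in 5 sequences with 129 counts, all with TRAC: 3 of TRAV15-1/DV6-1 in mice 6, 12 and 20, 1 of TRAV15D-1/DV6D-1 in mouse 12 and 1 of TRAV21/DV12 in mouse 11. Sequences of other TRAV segments, 51556 in all, also had TRAC in 98.7% and a TRDD segment in 0, with TRDJ1 in 0. The 590 sequences of TRDV segments differed from both, with a TRDD segment in 499 (84.6%), while 583 of them also carried TRAC. TRDV segments together took a median of 0.514% of counts (0.0913 to 2.26%). TRAV/DV segments in delta chains were not measured here, and the files hold no marker genes of T cell types.

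Most TRAV/DV clonotypes were found in a single mouse. Of 2288 distinct clonotypes, 143 (6.25%) were found in 2 or more mice and 8 in 4 or more, whereas 2696 of 32685 clonotypes of other TRAV segments (8.25%) were found in 2 or more. Of the 143, 88 had an identical nucleotide sequence in 2 or more mice. Listings of very few counts enter these numbers, among them the 12 counts of the large mouse 12 sequence in 4 other mice. These shares depend on depth and on the number of clonotypes per segment and were not tested. TRAV16D/DV11 had 75 of the clonotypes found in 2 or more mice and TRAV21/DV12 had 46. The most widely found was a TRAV16D/DV11 clonotype with TRAJ39, in 6 mice and 9 libraries of all 4 groups. Its main nucleotide form was the first of the following in mice 4, 6, 10 and 14 and the second in mice 11 and 17.
Form 1 of TRAV16D/DV11 with TRAJ39: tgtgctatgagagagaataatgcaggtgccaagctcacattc
Form 2 of TRAV16D/DV11 with TRAJ39: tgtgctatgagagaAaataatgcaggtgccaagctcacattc
Both encode the same amino acids. The clonotype was small, at 0.00911 to 0.0342% in 8 of the 9 libraries and 0.347% in tumor 1 of mouse 10. The widest TRDV clonotype, TRDV1 with TRAJ48 in 7 mice, had a capital stretch of 3 or 4 bases in each mouse, as in the main form of mice 16 and 20.
TRDV1 with TRAJ48: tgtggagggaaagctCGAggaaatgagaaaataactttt

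Segment counts were then compared between groups with the tumors of each mouse added, using edgeR's quasi-likelihood test on 81 V segments. The first 2 comparisons share the time-matched mice, and the time-separated mice enter all 4, so they are not independent of each other. Between time-separated and time-matched mice, 0 of 9 TRAV/DV segments were called, beside 1.23% of all segments tested, and 0 were called by limma. At an unadjusted p under 0.05 there were 2, beside 9 of the 81 segments tested. In all 4 comparisons of counts between groups DESeq2 gave an adjusted p to 7 of the 9, leaving out TRAV16D/DV11 and TRAV15D-1/DV6D-1, and here it called 0 of the 7. By mouse, TRAV16D/DV11 was at 0.524 to 19.5% of counts in the time-matched and 0.542 to 1.56% in the time-separated mice, so the ranges overlapped. Its log2 fold change was -5.85 (SE 1.99, edgeR adjusted p = 0.205), was -2.93 with library totals in place of edgeR's composition scaling and -2.64 by limma, and was 0.26 without mouse 12. TRAV21/DV12 was at 0.154 to 0.706% and 0.757 to 6.70%, which did not overlap, and its log2 fold change was 1.96 (SE 0.89, edgeR adjusted p = 0.373). The median log2 fold change of the 9 segments was 1.73 against -0.23 over all segments tested, and 5 of 9 were above 0.

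With the 3 surgery groups combined, 1 of 9 TRAV/DV segments was called against the time-matched group, beside 4.94% of all segments tested. This was TRAV16D/DV11, with a log2 fold change of -4.94 (SE 1.22, edgeR adjusted p = 0.0296). The value was set by mouse 12: without it the log2 fold change was 1.31 (edgeR adjusted p = 0.851). The call was also lost without any one of mice 4, 17, 19, 3, 11, 20, 7 and 10, although the fold change stayed between -5.09 and -4.59 in those fits. It was lost with library totals in place of edgeR's composition scaling, where the fold change was -2.31. By limma with the mouse as a random block (-1.94) and after thinning to the smallest library (-4.75) it was lost as well. The call held without mouse 6, 14 or 16, without the filter on low counts, with a minimum count of 1 or 5, after merging, and once every mouse's single largest clonotype, of any V segment, was dropped (-4.65, edgeR adjusted p = 0.0191). That last step did not remove the TRAV16D/DV11 clonotype of mouse 12, which ranked 2 in both tumors. The other 8 segments had log2 fold changes from -0.91 for TRAV15-2/DV6-2 to 3.00 for TRAV15D-1/DV6D-1. The median of the 9 was 0.46 against -0.17 over all segments.

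Decitabine was compared with the untreated time-separated group, on the sum of the unexposed and the exposed tumor of each mouse, since the labels do not tell them apart. At the low dose 0 of 9 TRAV/DV segments were called, beside 0% of all segments tested by edgeR, and limma and DESeq2 called 0, the latter of 7. At an unadjusted p under 0.05 there was 1, beside 11 of the 81 segments tested. This 1 was TRAV13-4/DV7, with a mean share of 0.400% ± 0.296 against 0.119% ± 0.108 (SD, n = 3 mice each) and a log2 fold change of 2.41 (SE 1.05, edgeR adjusted p = 0.301). At the high dose 0 of 9 were called, beside 0% of all segments tested by edgeR. At an unadjusted p under 0.05 there were 2, beside 9 of the 81 segments tested. TRAV13-4/DV7 was at 0.574% ± 0.490 and had a log2 fold change of 3.40 (SE 1.09, edgeR adjusted p = 0.169), which was 2.46 with library totals and 2.39 by limma. TRAV15-1/DV6-1 was at 0.667% ± 0.796 against 0.120% ± 0.110 and had a log2 fold change of 3.33 (SE 1.10, edgeR adjusted p = 0.169). DESeq2 called both at the high dose, with adjusted p = 0.0180, beside 2.86% of the 70 segments to which it gave an adjusted p. By limma 0 were called. Without mouse 7 the fold change of TRAV15-1/DV6-1 was 1.79, and TRAV13-4/DV7 was called at 3.95 (edgeR adjusted p = 0.0466). For TRAV13-4/DV7 the time-separated libraries ranged from 0.0172 to 0.469% and the high-dose libraries from 0 to 1.66%, so the values overlapped. The median log2 fold change of the 9 segments was 0.01 at the low and 2.02 at the high dose, against -0.12 and -0.20 over all segments tested.

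The number of distinct clonotypes per segment and mouse was tested in the same way. In each of the 4 comparisons 0 of the 6 TRAV/DV segments with enough clonotypes were called by edgeR or limma, beside 0% of the 52 segments tested by edgeR, and DESeq2 called 0 of 5, with no adjusted p for TRAV15D-1/DV6D-1. At an unadjusted p under 0.05 there were 2, 5, 3 and 5 of the 52 segments. Of the TRAV/DV segments there were 0, 0, 0 and, for high-dose against time-separated, 2. These were TRAV15-1/DV6-1, with a log2 fold change of 2.25 (SE 0.71, edgeR adjusted p = 0.358) that was 1.28 with a minimum count of 5 and 3.48 with a minimum count of 1, and which had too few clonotypes to be tested after merging, and TRAV13-4/DV7, with 1.42 (SE 0.63, edgeR adjusted p = 0.433). TRAV21/DV12 had 1.09 (SE 0.53) and TRAV16D/DV11 -1.17 (SE 0.73) for time-separated against time-matched, with edgeR adjusted p = 0.604 and 0.677. That of TRAV21/DV12 was 0.32 without mouse 17 and 0.59 after merging.

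**Figure D4:**
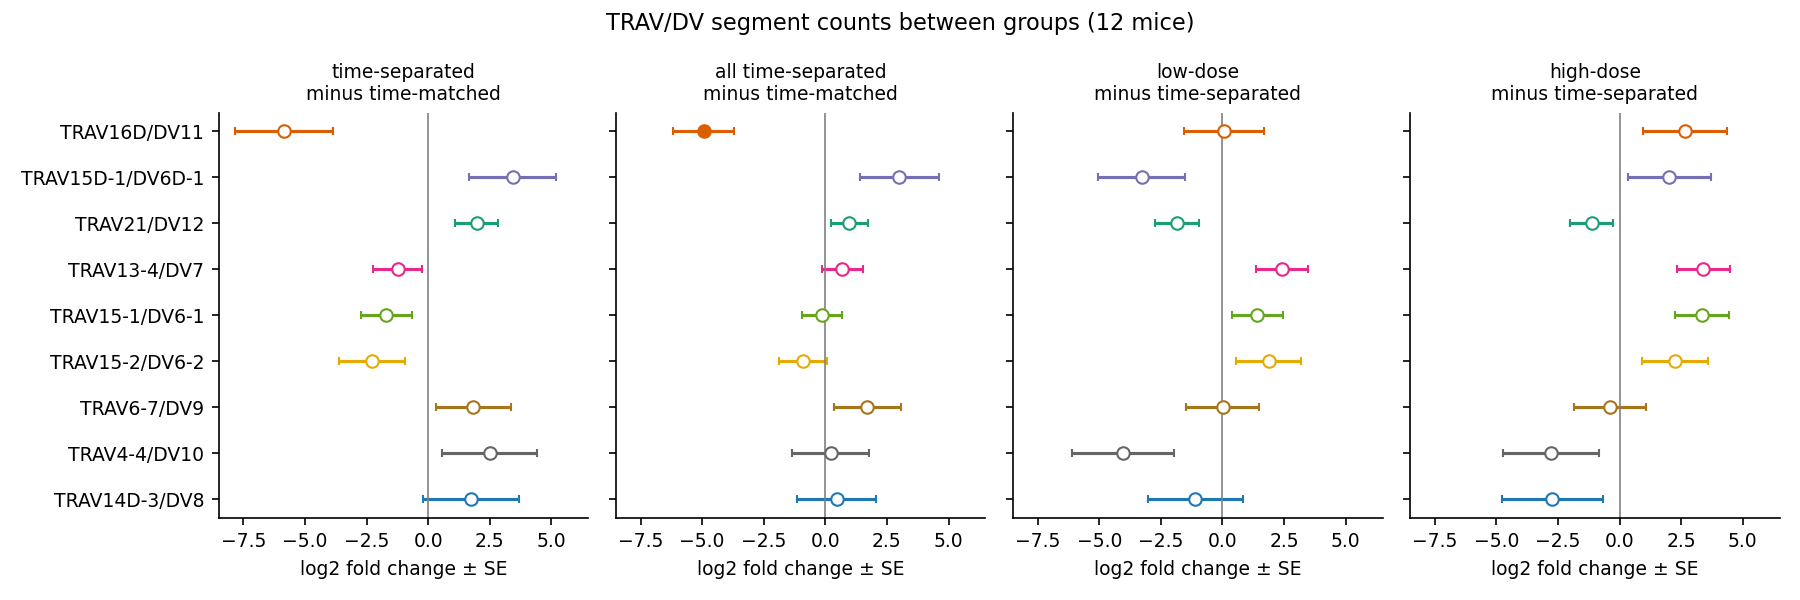
Log2 fold change (edgeR, tumors of each mouse added, 12 mice) of each TRAV/DV segment in 4 comparisons between groups, with bars of 1 standard error. The only filled point, a call after adjustment, is TRAV16D/DV11 in all surgery groups against time-matched (-4.94), which is 1.31 without mouse 12.

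Within the 9 mice with surgery, tumor 2 was compared with tumor 1 with the mouse as a block. Of 7 TRAV/DV segments tested 0 were called, beside 0% of the 61 V segments tested by edgeR. At an unadjusted p under 0.05 there were 0, beside 9 of the 61. DESeq2 called 1 of the 7, TRAV15-2/DV6-2, and 12 of the 61, or 19.7%. The log2 fold change of TRAV15-2/DV6-2 was -2.54 (SE 1.56, edgeR adjusted p = 0.417) and was -0.22 without the mouse as a block. TRAV16D/DV11 had -0.03 (SE 0.64) and TRAV21/DV12 0.69 (SE 0.56). The summed TRAV/DV share was higher in tumor 2 in 3 of 3 time-separated mice, 3 of 3 high-dose mice, 2 of 3 time-matched mice and 0 of 3 low-dose mice. The mean log2 ratio of tumor 2 to tumor 1 was 0.06 ± 0.11 in the time-matched, 0.91 ± 0.87 in the time-separated, -0.59 ± 0.52 in the low-dose and 0.85 ± 0.32 in the high-dose group (SD, n = 3 mice each). With the largest TRAV/DV clonotype of each library left out, the means were 0.04, -0.21, -1.01 and 0.20 in the same order, and tumor 2 was higher in 2, 2, 0 and 2 of 3 mice. These values carry no test, and which tumor was the earlier is not known. In every mouse with surgery the tumor numbered 2 had fewer TRA clonotypes than tumor 1, for example 976 against 2212 in mouse 19. The part of clonotype number in these ratios was not tested.

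The overlap of the 2 tumors of a mouse was measured with the Morisita-Horn index, which is 1 where all clonotypes have equal shares in both tumors and 0 where none is shared. For time-matched mice 6, 12 and 14 it was 0.811, 1.00 and 0.804 over TRAV/DV clonotypes, against 0.967, 0.989 and 0.941 over all other TRA clonotypes. For time-separated mice 4, 17 and 19 it was 0.218, 0.973 and 0.000589, against 0.383, 0.790 and 0.176. For low-dose mice 3, 11 and 20 it was 0.634, 0.0775 and 0.0388, against 0.577, 0.708 and 0.328. For high-dose mice 7, 10 and 16 it was 0.795, 0.986 and 0.740, against 0.887, 0.828 and 0.859. TRAV/DV clonotypes thus spanned nearly the full range of the index. They were lower than the others in 8 of 12 mice, with a mean difference of -0.113. Group means were 0.872 ± 0.111, 0.397 ± 0.511, 0.250 ± 0.333 and 0.841 ± 0.129 in the order above (SD, n = 3 mice each).

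The shared clonotypes were also counted. In mouse 19, 2 of 183 TRAV/DV clonotypes were found in both tumors, and they held 3.22% of TRAV/DV counts in tumor 1 and 1.54% in tumor 2. In mouse 12, 181 of 472 were found in both, with 99.3 and 99.2% of counts. With the largest TRAV/DV and the largest other clonotype of each mouse left out, the group means were 0.733 in the time-matched, 0.173 in the time-separated, 0.207 in the low-dose and 0.510 in the high-dose group. The time-matched mean stayed the highest of the 4 in this setting. The index over few clonotypes rests on less data than that over the others, and the part of clonotype number in the difference was not tested.

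**Figure D5:**
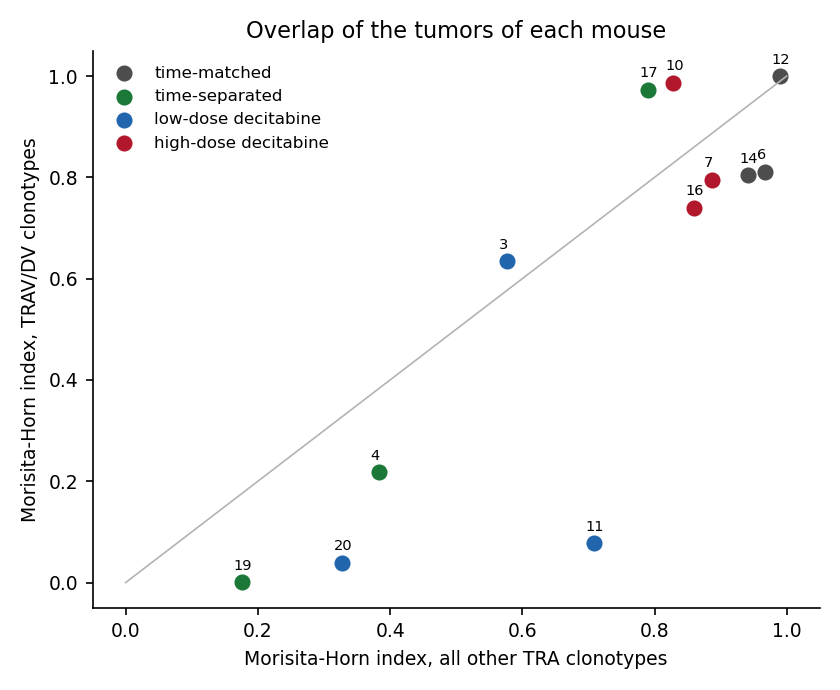
Morisita-Horn index of tumor 1 and tumor 2 over TRAV/DV clonotypes (vertical axis) against that over all other TRA clonotypes (horizontal axis), 1 point per mouse, numbered by mouse and colored by group, with the line of equal values. Points of 8 of 12 mice lie below the line, mouse 11 farthest (0.0775 against 0.708), and the 3 time-matched mice lie at 0.804 or higher.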

How the data were processed

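TCR alpha and beta libraries were made by the authors from total RNA of whole tumors with a kit that adds molecular identifiers, and clonotypes were called with Cogent NGS Immune Profiler v2.0. The deposited tables hold a whole-number count per receptor sequence with no normalization. The authors call the counts reads, from an analysis that used the identifiers. Whether reads of one molecule were merged, the genome build and the annotation are not given in the sources used here. Only the 24 TRA tables were used and beta tables were not analysed here. Sequences with a stop mark, which also covers out-of-frame junctions and took 14.1% of counts, and sequences with a count of 1, which made up 74.5% of sequences, were left out, as in the study's methods. The smallest library had 26623 counts, so 3 counts equal 0.0113% there. Counts and clonotype numbers per V segment, summed over the tumors of a mouse, were fitted with edgeR 4.0.16 (TMM, quasi-likelihood test, Benjamini-Hochberg over all V segments, threshold 0.05), with 4 groups of 3 mice sharing the spread. The mouse was the replicate, since tumors of a mouse are not independent. Tumor 2 was set against tumor 1 with the mouse as a block. Mean TRAJ number, CDR3 length and non-productive share (log2 ratio with 0.5 added to each number) were tested with exact two-sided sign-flip permutation tests over 12 mice. Alternatives were DESeq2 1.42.0, limma 3.58.1, no TMM, no filter, minimum counts of 1 and 5, thinning to the smallest library, leaving out the largest clonotype or each mouse, and nucleotide clonotypes. Merging near-identical sequences, leaving out mice from the summed share, and leaving out expanded clonotypes from J use and from the ratio between tumors, were added after the data were seen. Merging joined a sequence to one at least 20 times larger, with the same J segment and CDR3 length and at most 1 base apart. The larger one could carry another V name, which the merged counts then took. Every member segment was named, with the largest clonotype of each mouse and of each segment, the most widely found clonotype and the 3 leading J partners of segments with at least 100 clonotypes. Members and lists were chosen with earlier results of these data known. Gene order came from the RefSeq mouse annotation. The scripts, in Python 3.11.15 (numpy 2.4.6, pandas 2.3.3, scipy 1.17.1) and R 4.3.3, were tested on simulated data.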

Additional observations from a re-analysis of the deposited data

Results flagged for a closer look

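In 11 of 44 groups of 6 libraries the highest library stood apart from the next by more than 0.625 of the group's range. Chance gives this in about 1 of 20 groups of independent, normally distributed values, whereas these shares are skewed and tumors of a mouse are not independent. As shares of counts these were TRAV15D-1/DV6D-1 at 12.6% in tumor 2 of mouse 19, with the next time-separated library at 0.279%, and TRAV16D/DV11 at 12.9% in tumor 2 of mouse 16, with the next high-dose library at 3.91%. TRAV21/DV12 stood apart at 6.24% in tumor 2 of mouse 7, and TRAV16D/DV11 at 2.05% in tumor 1 of mouse 20. Among less used segments these were TRAV13-4/DV7 at 0.469% and TRAV14D-3/DV8 at 0.138%, both in tumor 1 of mouse 19, TRAV15-1/DV6-1 at 0.441% in tumor 2 of mouse 4, and TRAV15-2/DV6-2 at 0.347% in tumor 1 of mouse 16. TRAV4-4/DV10 stood apart at 0.0170% in tumor 2 of mouse 6 and at 0.0194% in tumor 2 of mouse 20. The summed TRAV/DV share of clonotypes was 5.80% in tumor 1 of mouse 20, with the next low-dose library at 4.44%.

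The ratio of the summed TRAV/DV share between the tumors numbered 2 and 1, whose order in time is not known, lay on opposite sides of 0 on the log2 scale between groups. The mean log2 ratio of tumor 2 to tumor 1 was 0.91 in the time-separated and 0.85 in the high-dose group, with 3 of 3 mice higher in tumor 2 in each, and -0.59 in the low-dose group, with 0 of 3 mice higher. With the largest TRAV/DV clonotype of each library left out, the means were -0.21, 0.20 and -1.01, with 2, 2 and 0 of 3 mice higher. The difference was not tested, and in low-dose mouse 11 the shares, 2.30 and 2.28%, differed little. In every mouse of these groups tumor 2 had fewer TRA clonotypes than tumor 1.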

How the results depend on the processing

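Groups share no mouse numbers, so no paired analysis between groups was possible because each mouse lies in 1 group. The block by mouse applies to tumor 2 against tumor 1, where without the block 0 TRAV/DV segments were called, as with it. For all surgery groups against time-matched the 1 TRAV/DV call became 0 without TMM, after thinning and by limma with a random block, and ranged from 0 to 1 when a mouse was left out; DESeq2 gave TRAV16D/DV11 no adjusted p in any of the 4 comparisons of counts between groups. Leaving out each mouse gave a log2 change of TRAV16D/DV11 from -5.57 to 1.31 in that comparison, from -6.66 to 0.26 for time-separated against time-matched, and from -1.35 to 0.58 in clonotype numbers for all surgery groups, each highest without mouse 12. TRAV/DV calls for time-separated against time-matched ranged from 0 to 1 (1 without mouse 6), and for high-dose against time-separated from 0 to 1 (1 without mouse 7), with 2 by DESeq2. DESeq2 called 1 TRAV/DV segment between tumors. Over all V segments calls ranged from 0 to 3 for time-separated and 0 to 7 for all surgery groups against time-matched, from 0 to 3 for low-dose and 0 to 2 for high-dose against time-separated, and reached 12 between tumors by DESeq2, against 0 by edgeR. In clonotype numbers they reached 2 and 1 in the first 2 of these. For CDR3 length 5 TRAV/DV segments were called with a minimum count of 1, TRAV16D/DV11 not among them, and 1 to 3 when a mouse was left out. Over all V segments 19 to 25 were called in the alternative runs and 18 to 22 when a mouse was left out, against 20. For the non-productive share 2 were called with a minimum count of 5 or with counts as weights, and 8 to 13 over all V segments against 5. The non-productive log2 ratio of TRAV16D/DV11 was -0.58 with a minimum count of 1 against -1.23, and the ratio turned to 0.13 for TRAV13-4/DV7 without near-identical sequences and to 0.065 for TRAV21/DV12 with a minimum count of 1. The clonotype share of the low-dose group was 5.11% with a minimum count of 5 and 5.49% with near-identical sequences merged, and that of the high-dose group 6.31% with them merged. The overlap without the largest clonotypes was 0.733 in the time-matched and 0.510 in the high-dose group. Leaving out a mouse moved the mean summed count share between 1.89 and 11.1% in the time-matched and between 8.17 and 14.0% in the high-dose group. The causes were not tested. Depth limits the smallest share seen, and 3 mice per group limit every comparison between groups.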
